A study of Mus musculus with 14 samples.

Results

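Dcpp1, Dcpp2 and Dcpp3 are 3 neighbouring mouse genes that encode small secreted salivary proteins, and they were taken by gene symbol from the gene tables of salivary gland organoids and tissue. They make up 3 of the 45777 genes in each table. They were chosen by their read counts in these 14 libraries, so their levels and differences are given here as a description, without a test. Bulk RNA sequencing compared organoids and whole glands of wild-type C57BL/6 mice, which the study's methods give as females of 6 to 8 weeks and the tissue column names as 6 weeks. Organoids are clusters of gland epithelial cells grown in Matrigel, a basement membrane gel. Sublingual gland (SLG), parotid gland (PG) and submandibular gland (SMG) organoids were cultured in differentiation accelerating media (DAM), SMG organoids also in growth and expansion media (GEM), and untreated SLG, PG and SMG tissue was sequenced beside them. There were 7 groups of 2 libraries, described as biological replicates without naming animals or cultures, so the spread between libraries may be partly technical. GEM held NRG1, RSPO1, Noggin, FGF1, FGF7, the TGFβ receptor inhibitor A83-01 and 10 µM Y-27632, a ROCK inhibitor. DAM lacked Y-27632 and held 5 µM DAPT, which blocks the γ-secretase that releases active NOTCH, and the labels give 3 days for either medium. The study's figure legends describe 9 days in GEM, or these and a further 3 days in DAM. Its methods instead have Y-27632 taken out at 7 days and DAPT added 3 days later. The removal of Y-27632, the addition of DAPT and any difference in time in culture cannot be told apart.

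Dcpp stands for demilune cell and parotid protein. The mouse SLG is a mucous gland whose acini are capped by crescents of serous cells called demilunes, the PG is a serous gland, and the SMG is a mixed gland with serous acini and, in mice, granular ducts that store kallikreins and growth factors. The Dcpp proteins carry a jacalin-type lectin fold, a carbohydrate-binding fold shared with the zymogen granule protein Zg16 and with human ZG16B, and they are released with saliva. Zg16 itself had 0 counts in all 14 libraries.

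The 3 genes lay side by side on the plus strand of chromosome 17 (GRCm38, the build of the tables), within 38.8 kb. RefSeq placed Dcpp1 (gene 13184) at chr17:23880669-23882853, Dcpp2 (gene 630537) at chr17:23898722-23900788 and Dcpp3 (gene 620253) at chr17:23917419-23919441. In GENCODE vM21 the first listed transcript of each gene had 4 exons, with 617 bases for Dcpp1, 589 for Dcpp2 and 610 for Dcpp3. Another annotated Dcpp2 transcript, Dcpp2-202, began at base 23880880, inside the first exon of Dcpp1, and then joined the later exons of Dcpp2. Over the 4-exon transcripts, Dcpp1 and Dcpp2 were identical at 89.95% of aligned positions, Dcpp1 and Dcpp3 at 93.35%, and Dcpp2 and Dcpp3 at 91.84%. The long noncoding RNA gene Gm41545 spans Dcpp3 and had at most 8 counts in any library.

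The bases just upstream of each annotated start are shown because the 3 genes were high and low in the same groups. They come from RefSeq (GRCm38.p6, plus strand) and capitals mark the positions at which the 3 genes differ. The RefSeq spans of Dcpp1 and Dcpp3 above begin upstream of these starts, so the bases shown for them partly lie within those spans. The stretches are chr17:23880630-23880875 for Dcpp1, chr17:23898472-23898716 for Dcpp2 and chr17:23917209-23917453 for Dcpp3.
Dcpp1: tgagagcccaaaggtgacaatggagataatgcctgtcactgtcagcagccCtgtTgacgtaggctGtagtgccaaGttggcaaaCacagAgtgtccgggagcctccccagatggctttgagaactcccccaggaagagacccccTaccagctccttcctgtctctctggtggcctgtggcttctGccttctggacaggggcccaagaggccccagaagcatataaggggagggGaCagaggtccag
Dcpp2: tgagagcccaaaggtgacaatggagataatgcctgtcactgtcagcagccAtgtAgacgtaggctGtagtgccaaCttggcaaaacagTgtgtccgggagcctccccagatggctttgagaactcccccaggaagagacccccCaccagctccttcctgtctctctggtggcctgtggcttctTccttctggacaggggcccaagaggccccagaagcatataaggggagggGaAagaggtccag
Dcpp3: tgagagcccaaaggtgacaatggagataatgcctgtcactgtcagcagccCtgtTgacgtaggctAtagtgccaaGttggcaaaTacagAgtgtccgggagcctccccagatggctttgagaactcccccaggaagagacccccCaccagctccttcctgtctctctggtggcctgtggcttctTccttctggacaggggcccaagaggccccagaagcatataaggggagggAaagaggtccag
Of 246 aligned positions, 10 differed among the 3 genes, and pairs of genes were identical at 96.8% to 97.6%. Motifs were searched on both strands of the 300-base promoter windows of the RefSeq table, which holds 32851 promoters, and they were chosen after these sequences were seen. The TATA box core TATAA was found in all 3 windows, starting 26 bases before the start of Dcpp1, 31 before that of Dcpp2 and 29 before that of Dcpp3, and in 24.9% of all promoters. The Ets core CAGGAAG was present in all 3 (13.3% of all promoters) and so was the Sox core ACAATG (12.6%). TGACGT, part of the cyclic AMP response element, was present in the Dcpp1 and Dcpp3 windows, had no match in the Dcpp2 window, and was present in 7.51% of all promoters. The E-boxes CAGCTG (16.3% of all promoters) and CATATG (3.92%) and the Rbpj site GTGGGAA (6.38%) had no match in the 3 windows, which says only that these letters are not there. A match is a string of letters and was not tested as a binding site.

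The coding bases were 516 in Dcpp1 and Dcpp2 and 513 in Dcpp3, and 45 of 516 aligned columns differed among the genes, 37 of them in the fourth exon. The stretch of 120 coding bases of that exon with the most differences, 26 columns, is given because the members can best be told apart there. The bases are from GENCODE vM21 (GRCm38, plus strand), at chr17:23882553-23882672 for Dcpp1, chr17:23900488-23900607 for Dcpp2 and chr17:23919141-23919260 for Dcpp3, with capitals at the columns that differ.
Dcpp1: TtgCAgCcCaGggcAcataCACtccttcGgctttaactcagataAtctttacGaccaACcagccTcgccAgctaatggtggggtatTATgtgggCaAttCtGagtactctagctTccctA
Dcpp2: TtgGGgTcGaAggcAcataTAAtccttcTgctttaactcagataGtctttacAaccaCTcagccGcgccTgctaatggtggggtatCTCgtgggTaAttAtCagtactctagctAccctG
Dcpp3: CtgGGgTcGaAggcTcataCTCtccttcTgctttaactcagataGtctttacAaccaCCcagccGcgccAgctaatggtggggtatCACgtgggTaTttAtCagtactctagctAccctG
Outside such stretches the genes share sequence. Of all 100-base windows, the length of 1 read, 19.9% of those in Dcpp1, 9.39% of those in Dcpp2 and 20.4% of those in Dcpp3 occurred letter for letter in a transcript of another member. The counting of reads with several matches was not described in the sources used, so the split of counts between members is less certain than their sum, and both are given.

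The libraries were of like depth, with 56383651 to 69139767 counts in the 8 organoid libraries and 57397998 to 71367044 in the 6 tissue libraries. They differed in composition. The 10 most counted genes took 7.37% to 9.07% of the counts in organoid libraries and 47.0% to 80.2% in tissue libraries. Gland markers partly followed the labels. The parotid list (Amy1, Bpifa2, Car6) summed to at most 6.58 CPM (counts scaled to 1e+06 per library) in PG organoids but to 50.2% to 50.4% of the counts in PG tissue. The sublingual markers Nkx2-3 and Tlx1, of 3 listed, were in the tables and summed to 139 to 142 CPM in SLG organoids and 135 to 142 CPM in SMG organoids in DAM, and both had 0 counts in PG organoids. The sum of the submandibular list (Mucl2, Smgc, Klk1, Egf) went against the labels in organoids, mostly through Smgc. SLG organoids had 97.8 and 105 CPM, PG organoids 8.40 and 13.8 CPM, and SMG organoids in DAM 20.1 and 29.4 CPM. Smgc, also listed as a mucous cell gene, averaged 85.4 CPM in SLG organoids and 11.5 CPM in SMG organoids in DAM. In that order Klk1 averaged 14.6 and 12.8 CPM and Egf 1.48 and 0.39 CPM, and Mucl2 had 0 counts in both. SLG tissue held genes of the other glands as well. The submandibular list took 11.4% and 13.0% of its counts, against 51.7% and 54.4% in SMG tissue. The parotid list took 5.78% in SLG tissue library 1, 1.47% in library 2, and 2.91% and 2.71% in SMG tissue. Car6 of that list had 28110 CPM in SMG tissue and 16380 CPM in PG tissue. Fibroblast markers summed to 0.823 to 1.74 CPM in organoids and 91.2 to 139.8 CPM in tissue, immune markers to 0.153 CPM at most in organoids and 3.70 to 7.42 CPM in tissue, and skeletal muscle markers to 238 CPM in PG tissue library 2, against at most 4.47 CPM in any other library. In bulk RNA, a larger number of cells of a type and more RNA per cell cannot be told apart.

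Dcpp transcripts were most abundant in SLG tissue and least abundant in SMG tissue, where they summed to 205 and 248 counts. The 3 genes together took 21.4% and 21.6% of the counts in SLG tissue and 2.04% and 1.77% in PG tissue. They took 0.208% and 0.262% in SMG organoids in GEM, 0.126% and 0.117% in SLG organoids, 0.0503% and 0.0622% in SMG organoids in DAM, 0.00733% and 0.00998% in PG organoids, and 0.000323% and 0.000432% in SMG tissue. None of these 7 pairs overlapped the next in this order, for the sum or for any single gene, with 2 libraries each. How many of all genes were separated along this order was not counted, so the separation cannot be called a feature of the Dcpp genes. In the comparisons of 2 groups below, 9.0% to 84.7% of tested genes were separated in the direction of the Dcpp genes. Those comparisons do not cover every neighbouring pair of this order. By group means, the closest neighbours were SMG organoids in GEM over SLG organoids for Dcpp2, 1.44-fold apart, and SLG organoids over SMG organoids in DAM for Dcpp1, 1.52-fold apart. The 95% Wilson interval of the Dcpp shares of counts reached at most 0.0102 percentage points to either side. It covers counting error only, since reads copied by PCR are not independent molecules.

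**Figure D1:**
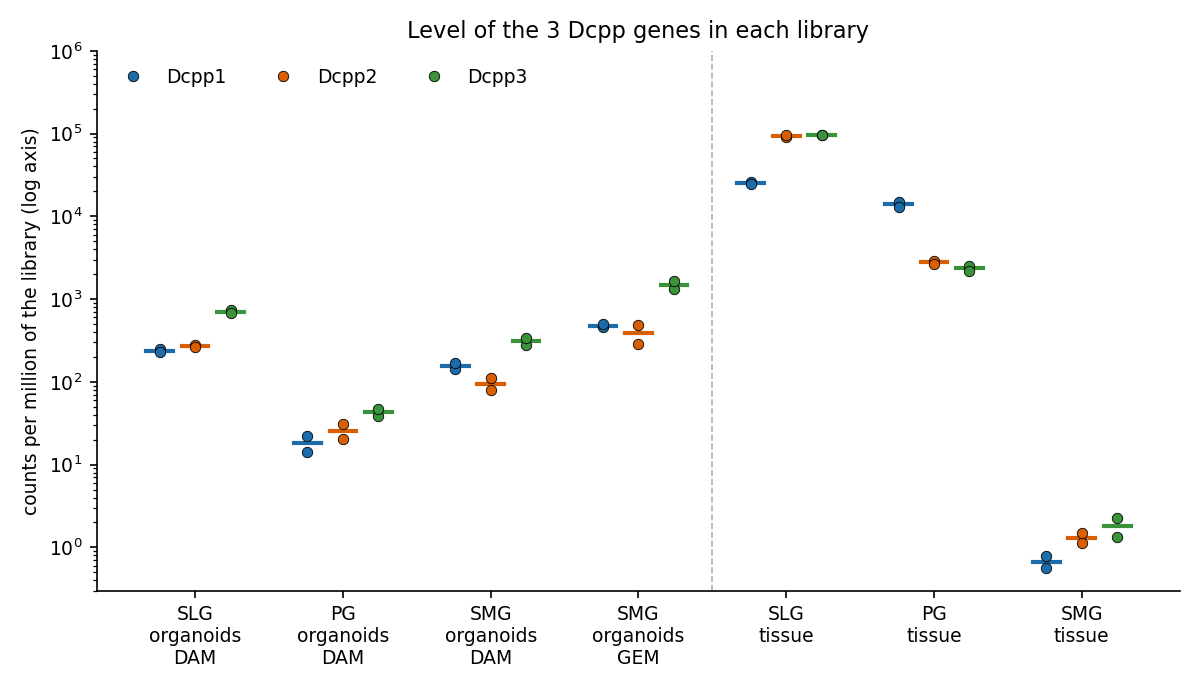
Level of Dcpp1, Dcpp2 and Dcpp3 in each of the 14 libraries, in CPM of the whole library on a log axis, with points for libraries and bars for the mean of 2. The levels span from 0.558 CPM (Dcpp1, SMG tissue) to 97031.5 CPM (Dcpp3, SLG tissue), and the glands stand in another order among organoids than among tissues.

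Dcpp1 had 248 and 227 CPM in SLG organoids, 14.3 and 22.0 CPM in PG organoids and 143 and 169.9 CPM in SMG organoids in DAM. It had 458 and 495 CPM in SMG organoids in GEM. In tissue it had 25635 and 24493 CPM in SLG, 14987 and 12794 CPM in PG and 0.787 and 0.558 CPM in SMG. Both SLG and PG tissue were therefore far above every organoid library for Dcpp1, and SMG tissue was below all of them.

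Dcpp2 had 276 and 261 CPM in SLG organoids, 20.3 and 31.2 CPM in PG organoids, 80.5 and 109.7 CPM in SMG organoids in DAM and 285 and 488 CPM in SMG organoids in GEM. Its tissue levels were 90932 and 95294 CPM in SLG, 2884 and 2664 CPM in PG and 1.12 and 1.48 CPM in SMG. Unlike Dcpp1, it was far higher in SLG than in PG tissue. The 2 GEM libraries were 1.71-fold apart for this gene, against 1.08-fold for Dcpp1 and 1.22-fold for Dcpp3.

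Dcpp3 had 732 and 683 CPM in SLG organoids, 38.8 and 46.7 CPM in PG organoids, 279 and 342 CPM in SMG organoids in DAM and 1341 and 1639.6 CPM in SMG organoids in GEM. In tissue it had 97031.5 and 96688 CPM in SLG, 2531 and 2211 CPM in PG and 1.32 and 2.28 CPM in SMG. Its PG tissue libraries lay closest to an organoid group, SMG organoids in GEM, at 1.59-fold by group means.

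The members did not contribute alike in the glands. In SLG tissue, Dcpp2 made up 42.6% and 44.0% of the summed Dcpp counts and Dcpp3 45.4% and 44.7%, against 14.1% and 15.1% for Dcpp2 and 12.4% and 12.5% for Dcpp3 in PG tissue. Dcpp1 made up the rest, the smallest share in both SLG libraries, against 73.5% and 72.4% in PG tissue. Organoids of all glands and media were alike in that Dcpp3 came first, with 46.7% to 64.4% of the summed counts over 8 libraries. PG organoids, with 19.5% and 22.0% of Dcpp1, thus did not show the make-up of PG tissue. Per transcript length, from the deposited TPM values, Dcpp1 held 11.8% and 11.1% in SLG tissue and 73.3% and 72.2% in PG tissue, and Dcpp3 held 53.1% to 64.7% in the 6 organoid libraries with a usable TPM column, so the leading member was the same on that scale. In SMG tissue the make-up rests on 205 and 248 counts, and the 95% Wilson interval of the Dcpp1 share was 19.0% to 30.7% in library 1 and 9.29% to 17.6% in library 2.

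**Figure D2:**
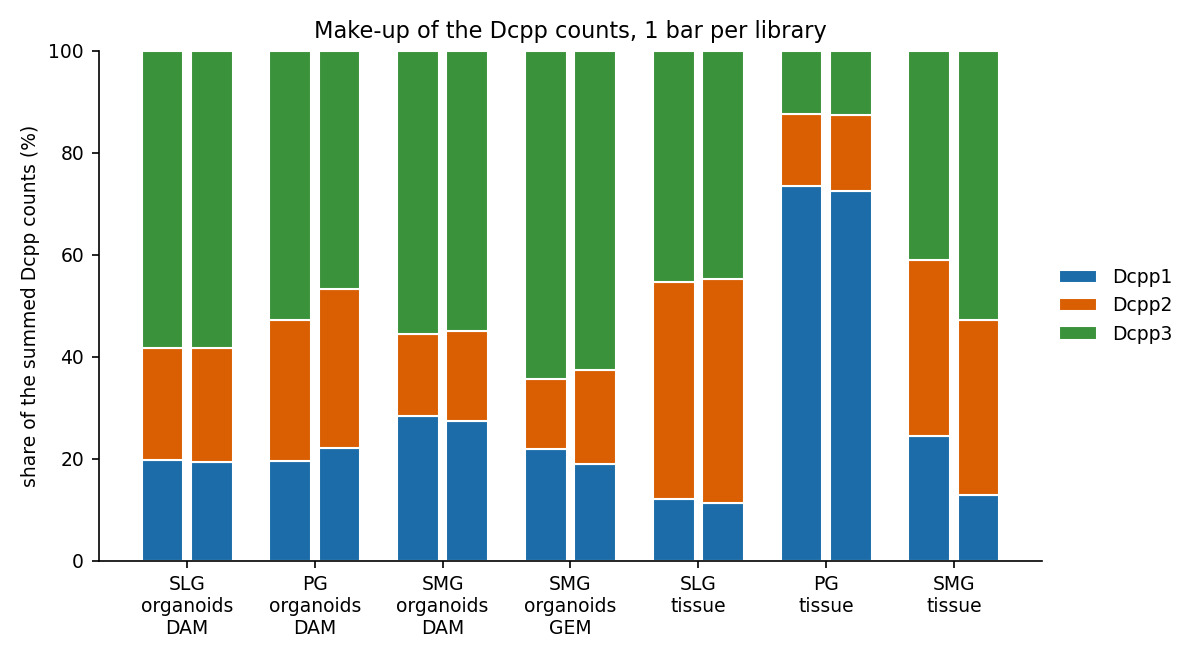
Share of Dcpp1, Dcpp2 and Dcpp3 in the summed Dcpp counts, in percent, with 1 bar per library. Dcpp1 takes at most 28.4% in any organoid library and 72.4% to 73.5% in PG tissue, while Dcpp3 is the largest part of every organoid bar.

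In SMG organoids, all 3 genes were lower after DAM than in GEM. The comparison asks what the switch to differentiation media did. Their sum was 503 and 622 CPM in DAM, against 2084 and 2623 CPM in GEM, 4.18-fold lower. The log2 fold change of edgeR, after TMM scaling for composition, was -1.68 for Dcpp1 (SE 0.19), -2.10 for Dcpp2 (SE 0.37) and -2.34 for Dcpp3 (SE 0.15). All 3 were lower in both DAM libraries than in both GEM libraries, as were 22.4% of the 16260 genes tested. Between the closest libraries of either medium, Dcpp2 was 2.59-fold lower in DAM, Dcpp1 2.70-fold and Dcpp3 3.92-fold.

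Among DAM organoids, SLG organoids had the highest Dcpp levels and PG organoids the lowest. Against PG organoids, with sums of 1257 and 1171 CPM in SLG and 73.3 and 99.8 CPM in PG, the log2 fold change was 3.70 for Dcpp1 (SE 0.21), 3.37 for Dcpp2 (SE 0.40) and 4.03 for Dcpp3 (SE 0.16). The libraries of the glands did not overlap for any of the 3, a pattern shown by 38.3% of all genes in this direction. SLG organoids also exceeded SMG organoids in DAM, with sums of 503 and 622 CPM in SMG, but by less. There the log2 fold change was 0.50 for Dcpp1 (SE 0.19), 1.39 for Dcpp2 (SE 0.37) and 1.08 for Dcpp3 (SE 0.14), and again all 3 were higher in every SLG library, as were 46.3% of all genes. PG organoids were below SMG organoids in DAM by -3.20 for Dcpp1 (SE 0.21), -1.98 for Dcpp2 (SE 0.38) and -2.95 for Dcpp3 (SE 0.15) on the log2 scale. All 3 were lower in each PG library, as were 30.0% of all genes. Dcpp2 had the smallest fold change in both comparisons with PG organoids. Its standard error was the largest, but that error rests on a spread estimated over all 8 organoid libraries, GEM included. From the compared libraries alone, the SD of the SLG over PG log2 ratio was 0.44 for Dcpp2, 0.45 for Dcpp1 and 0.20 for Dcpp3. For PG over SMG it was 0.54, 0.47 and 0.28 in that order. These comparisons share the DAM groups of SLG, PG and SMG organoids.

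Among whole glands the order was SLG, PG and SMG, with much wider gaps. SLG tissue had a sum of 213599 and 216475 CPM, against 20402 and 17669.8 CPM in PG tissue and 3.23 and 4.32 CPM in SMG tissue. Over PG tissue, the edgeR log2 fold change of SLG tissue was 4.21 for Dcpp2 (SE 0.18) and 4.49 for Dcpp3 (SE 0.26). For Dcpp1 it was -0.01 (SE 0.16) after TMM scaling, while the ratio of whole-library CPM was 1.80-fold higher in SLG, so the direction of Dcpp1 depends on the scaling. All 3 were higher in CPM in both SLG libraries, as were 70.4% of all genes, since the median gene was itself 0.85 higher on the log2 scale in SLG than in PG tissue by CPM. The Dcpp genes took 21.4% of the counts of SLG tissue library 1, which had the larger share of parotid genes, and 21.6% of those of library 2. Without library 1, the log2 ratio of summed CPM over PG tissue was 3.51, against 3.498 with it. The part of cells from neighbouring glands in these levels was not tested.

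SMG tissue had very few Dcpp transcripts. Counts were 50 and 32 for Dcpp1, 71 and 85 for Dcpp2, and 84 and 131 for Dcpp3, of 63525160 and 57397998 in all. SLG tissue exceeded it by 14.21 on the log2 scale for Dcpp1 (SE 0.27), 15.14 for Dcpp2 (SE 0.28) and 14.73 for Dcpp3 (SE 0.38). PG tissue exceeded it by 14.22 for Dcpp1 (SE 0.27), 10.94 for Dcpp2 (SE 0.25) and 10.23 for Dcpp3 (SE 0.33). All 3 genes were higher in every SLG library than in every SMG library, as were 75.9% of all genes, and higher in every PG library, as were 42.3%. The parotid genes Bpifa2, an abundant secreted protein with a lipid-binding fold, and Amy1, salivary amylase, had 391800 ± 1643 and 94570 ± 1126 CPM in PG tissue (SD, n = 2), against 2.63 ± 0.0456 and 4.82 ± 0.38 CPM in SMG tissue. Car6, the secreted carbonic anhydrase and last gene of that list, had 16380 ± 727 CPM in PG tissue and 28110 ± 1425 CPM in SMG tissue. Whether the few Dcpp counts of SMG tissue came from cells of that gland was not tested.

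Organoids and tissue of the same gland differed in opposite directions. SLG and PG organoids had far lower Dcpp levels than their glands, and SMG organoids had higher levels than theirs. In SLG the sum was 177-fold lower in organoids by CPM, with log2 fold changes of -7.83 for Dcpp1 (SE 0.23), -9.55 for Dcpp2 (SE 0.28) and -8.21 for Dcpp3 (SE 0.26). All 3 were lower in every organoid library, as were 13.6% of all genes. In PG the sum was 219.8-fold lower, with log2 fold changes of -11.58 for Dcpp1 (SE 0.27), -8.75 for Dcpp2 (SE 0.27) and -7.79 for Dcpp3 (SE 0.26), and all 3 were lower in every library, as were 9.0% of all genes. Dcpp2 differed most in SLG and Dcpp1 in PG.

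SMG organoids in DAM had a sum of 503 and 622 CPM, against 3.23 and 4.32 CPM in SMG tissue, 149-fold higher by CPM. The log2 fold change was 5.80 for Dcpp1 (SE 0.24), 4.13 for Dcpp2 (SE 0.24) and 5.37 for Dcpp3 (SE 0.24). By CPM all 3 were higher in every SMG organoid library, as were 84.7% of all genes. Because a few saliva genes fill the tissue libraries, the median gene was 1.13 higher in SLG organoids, 2.08 higher in PG organoids and 2.09 higher in SMG organoids than in tissue on the log2 CPM scale, and TMM scaling takes this shift out. The higher Dcpp level of SMG organoids exceeded it, also after that scaling. Organoids and tissue were deposited in separate tables, so culture and preparation cannot be told apart.

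**Figure D3:**
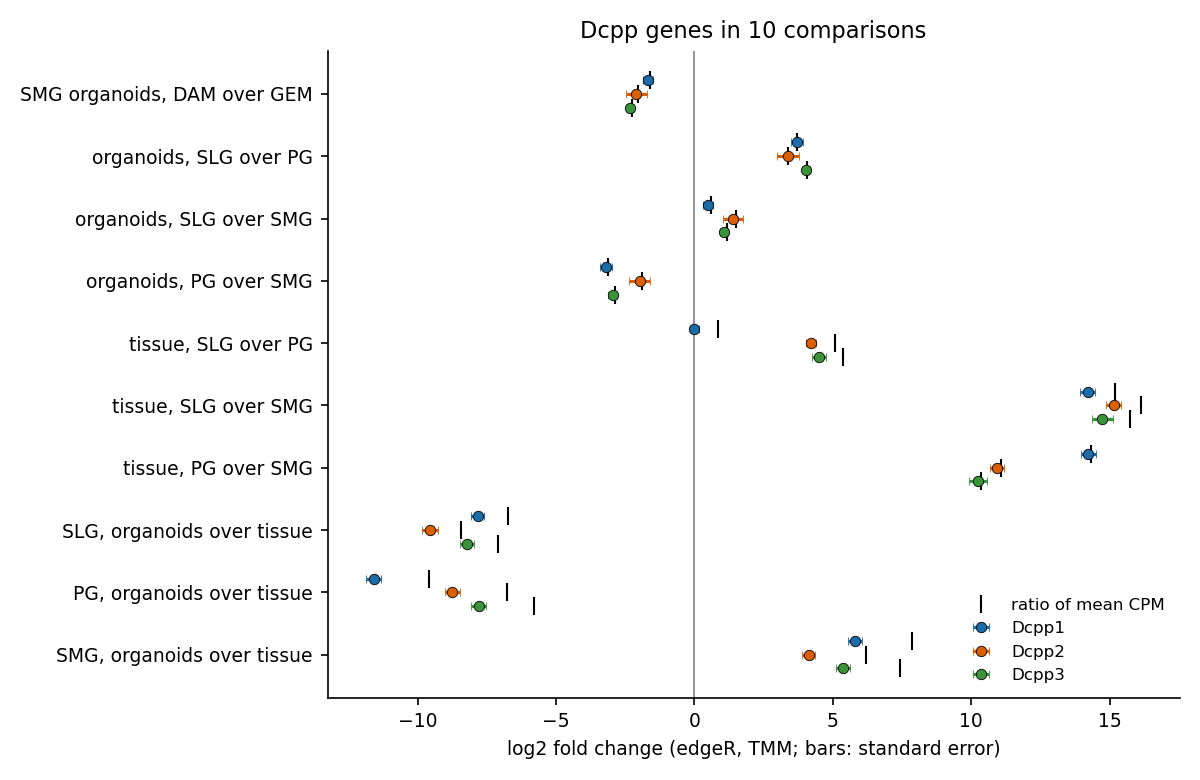
Log2 fold changes of the 3 genes in 10 comparisons from edgeR, with TMM scaling and bars for the standard error, beside the log2 ratio of mean CPM as a black tick. The ticks lie off the points where whole-library composition differs, and Dcpp1 between SLG and PG tissue lies at -0.01 by edgeR and at 0.85 by CPM.

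Other genes of secretory cells gave the setting of these differences in organoids. A gene was called where its edgeR adjusted p was under 0.05 over all genes tested and its log2 fold change was beyond 1. In SMG organoids, DAM over GEM, 1.81% of the 16260 genes tested were called higher and 1.15% lower, 482 genes in all, with 273 called without SMG DAM library 2 and 1065 without SMG GEM library 3. Of 8 tested mucous cell genes, 2 fell, namely Agr2, a disulfide isomerase needed for mucin folding (log2 fold change -1.82, adjusted p = 0.00027), and Smgc, a secreted product of immature SMG acini (-1.13, adjusted p = 0.0166). Of 9 tested acinar and gland transcription factors, 2 fell. Bhlha15, or MIST1, which drives the secretory architecture of serous cells, had 0.978 ± 0.0681 CPM in DAM and 2.97 ± 0.0504 CPM in GEM (SD, n = 2; log2 fold change -1.67, adjusted p = 0.000606). Elf5, an Ets factor of secretory glands, changed by -1.63 (adjusted p = 0.000146).

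Of 13 tested genes of acinar fluid secretion, 3 fell in DAM. They were the chloride channel Ano1 (log2 fold change -1.77, adjusted p = 1.78e-06), the muscarinic receptor Chrm3 (-1.84, adjusted p = 0.000192) and the chloride cotransporter Slc12a2 (-1.20, adjusted p = 6.3e-05). Of 8 tested saliva proteins, 3 fell and 2 rose. Lpo, the salivary peroxidase (-2.05), Scgb2b27, a secretoglobin (-1.64), and Bpifb1, a mucosal lipid-binding protein (-1.30), fell, while Crisp3, a cysteine-rich secretory protein (4.34), and Wfdc18, a whey acidic protein (1.52), rose. The called saliva proteins thus moved in both directions.

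Of 15 tested Notch pathway genes, 6 fell in DAM and 0 rose, including the target Hey1 (log2 fold change -1.98, adjusted p = 5.88e-07), the receptor Notch1 (-1.19, adjusted p = 6.87e-06) and the ligand Jag1 (-1.38, adjusted p = 7.37e-05). The others were Notch3, Hes1 and Nrarp, at -1.57, -1.10 and -1.52. Of 6 tested granular duct genes, 4 rose and 0 fell. The 4 were kallikreins, with log2 fold changes from 1.96 for Klk1b27 to 3.85 for Klk1, while the growth factors Egf and Nrtn had -0.59 and -0.27. None of the 4 basal and 4 luminal duct keratin or factor markers was called, with medians of 0.08 and -0.10. The sequence-related kallikreins may share reads.

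Between SLG and PG organoids, 3.93% of genes were called higher and 5.83% lower in SLG. Of 8 tested saliva proteins, 5 rose in SLG and 0 fell. Bpifb1 had 57.6 ± 0.213 CPM in SLG and 0.397 ± 0.0651 CPM in PG organoids (SD, n = 2; log2 fold change 7.16, adjusted p = 1.64e-10). Pip, the prolactin-induced protein of exocrine glands, differed by 3.48 (adjusted p = 1.1e-06), and Crisp3, Wfdc18 and Scgb2b27 by 2.31, 1.77 and 1.73. Of 8 mucous cell genes, 3 rose (Smgc, Agr2 and Fcgbp, a mucus-binding protein) and 1 fell, the mucin Muc5b. Of 9 transcription factors, Sox2, a factor needed for acinar development in mouse salivary glands, and the Ets factor Etv1 rose, by 4.85 (adjusted p = 1.64e-10) and 1.42 (adjusted p = 7.96e-07). Of 13 genes of fluid secretion, 0 were called. Basal markers were lower in SLG for 3 of 4, with Krt14 at -1.58, Krt15 at -1.22 and Trp63 at -1.03. Of 6 granular duct genes, 5 rose in SLG over PG, the same kallikreins by 3.87 to 4.59 and Egf by 1.04. In PG over SMG organoids, 4 of the 6 fell, and in SLG over SMG 1 rose, Egf (1.81).

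Between SLG and SMG organoids in DAM, 8.91% of genes were called higher and 6.28% lower in SLG. All 8 tested mucous cell genes rose, by 1.23 for Spdef, a goblet cell Ets factor, to 3.91 for Agr2 (adjusted p = 8.9e-08). Of 8 saliva proteins, 5 rose, led by Scgb2b27 at 4.18 (adjusted p = 2.01e-06) and Bpifb1 at 2.68 (adjusted p = 6.84e-09). Bhlha15 (2.85, adjusted p = 1.13e-06) and Elf5 (1.66, adjusted p = 1.09e-05) rose, and Sox2 had a log2 fold change of 0.80, short of the threshold. In fluid secretion, Chrm3, Kcnma1 and Slc12a2 rose and Aqp5, the water channel of acinar cells, and the potassium channel Kcnn4 fell, at -2.30 and -1.77. Krt8 and Krt19 of the luminal list rose by 2.31 and 2.14, and Krt5 and Krt15 of the basal list fell by 1.18 and 1.51 on the log2 scale. Both tested myoepithelial markers, the smooth muscle genes Tagln (8.55, adjusted p = 2.47e-09) and Myh11 (3.35, adjusted p = 0.000408), rose as well. The 4 genes of that list, Acta2 among them, summed to 79.7 to 83.7 CPM in SLG organoids, 187 to 248 CPM in PG organoids and 0.335 to 0.337 CPM in SMG organoids in DAM, where Cnn1 was at 0. The part of cell composition in the Dcpp differences was not tested. Crisp3, Lpo, Ano1, Nrtn, Acta2, Cnn1, Car6, Kcnma1, Fcgbp, Muc5b, Notch3, Hes1 and Nrarp are named after their values were seen.

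**Figure D4:**
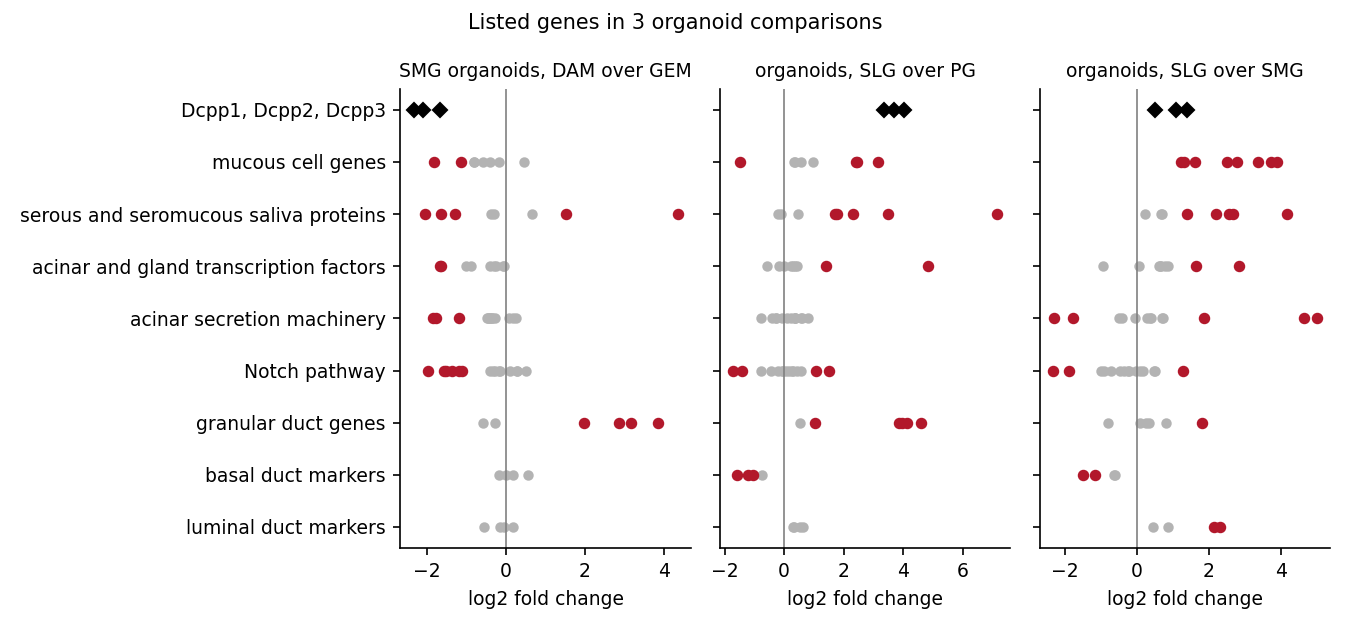
Log2 fold changes of listed genes in 3 organoid comparisons, 1 point per tested gene, red where called by edgeR and grey where not, with the 3 Dcpp genes as black diamonds and no call. The diamonds lie between -2.34 and -1.68 for DAM over GEM, where 4 granular duct genes lie between 1.96 and 3.85.

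The genes around the cluster were followed in the comparisons within organoids and within tissue. Their fold changes between organoids and tissue are not reported here. RefSeq lists 31 other genes within 200 kb of either end, all of them in the tables, and 21 had at least 10 counts in a library. They include Sbp, a spermine-binding protein of the prostate, and Sbpl, which lie 3.1 and 33.6 kb beyond Dcpp3, and a group of serine protease genes. Sbp had at most 19 counts in any library and Sbpl averaged at most 1.27 CPM in a group. Prss21, a testis serine protease gene 7.5 kb before Dcpp1, had 0 counts throughout. In SMG organoids, DAM over GEM, 15 neighbours were tested, 0 were called (edgeR), and their log2 fold changes lay between -0.42 and 0.43.

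Serine protease genes of the locus were called between organoids of different glands. Of 15 neighbours tested, 2 were called lower in SLG than in PG organoids, Prss22 (log2 fold change -2.32, adjusted p = 0.000697) and Prss27 (-3.24, adjusted p = 2.02e-06), and 0 higher. These 2 and Prss33 (-2.59, adjusted p = 7.05e-07) were also lower in SLG than in SMG organoids, again with 0 higher. In PG over SMG organoids, where 9.16% of all genes were called higher and 5.55% lower, Prss27 (1.80) and Prss32 (1.47) rose and Prss33 (-2.77) and Sbpl (-1.46) fell.

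In tissue, 13 neighbours were tested. Neighbours with a count of 0 in any tissue library were left out of the test and could not be called. Of these, Prss32 averaged 2.60 CPM in SLG, 0.313 CPM in PG and 0 CPM in SMG tissue. Gm41546 had 0.537, 0.22 and 0 CPM and Prss41 0.172, 0.123 and 0 CPM in that order, and Prss22 0.0351, 0.105 and 0 CPM. SLG over PG, where 12.6% of all genes were called higher and 15.7% lower, Pdpk1, a kinase upstream of AKT, rose by 1.10 on the log2 scale (adjusted p = 7.49e-07). In the same comparison 4 fell, namely Srrm2, a splicing factor (-1.19, adjusted p = 1.48e-06), Gm52285, 9530082P21Rik and 1520401A03Rik. Gm52285 overlaps the annotated span of Srrm2, so their reads may not be separable. SLG over SMG, where 8.38% were called higher and 11.9% lower, 0 neighbours rose and Kremen2 (-1.38) and Flywch2 (-1.02) fell. PG over SMG, where 6.71% were called higher and 6.78% lower, Gm52285 rose by 1.57 and 0 fell. Over SMG tissue, called neighbours had log2 fold changes from -1.38 (Kremen2) to 1.57 (Gm52285), and the Dcpp genes from 10.23 to 15.14. For SLG over PG tissue, called neighbours ran from -1.88 (Gm52285) to 1.10 (Pdpk1), and the Dcpp genes from -0.01 to 4.49. Gm52285 had at most 27 counts in any library. Neighbours at 0 in a tissue library, which were not tested, could not enter these ranges.

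**Figure D5:**
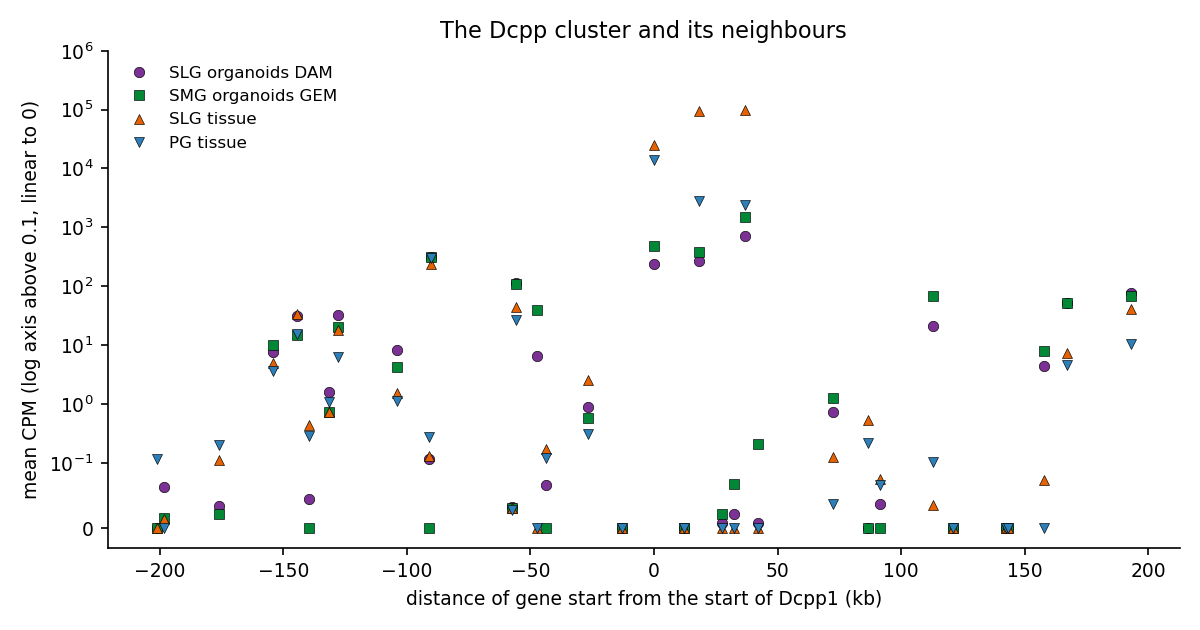
Mean CPM of the genes within 200 kb of the Dcpp cluster by distance of their start from that of Dcpp1, in SLG organoids, SMG organoids in GEM, SLG tissue and PG tissue, on an axis that is logarithmic above 0.1 and linear to 0. The Dcpp genes are higher in both tissues than in both organoid groups, whereas Prss22 has 21.1 CPM in SLG organoids and 68.7 CPM in SMG organoids in GEM, against 0.0351 CPM in SLG tissue and 0.105 CPM in PG tissue.

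The genes whose levels ran most like the summed Dcpp level were sought by Pearson's r of log2(CPM + 1), given without a p since the libraries form groups and share their composition. Over 14 libraries and 10869 genes of at least 5 CPM, r was highest for Tor2a, a torsin ATPase of the endoplasmic reticulum (0.954), the nuclear receptor Nr4a2 (0.945) and the translation inhibitor Pdcd4 (0.942). Ogfod2, Mmgt2, Aup1, Etnk1, Entpd2 and Stx17 were also among the highest 10, with 0.898 to 0.936. Their range was far narrower than that of the Dcpp genes. Nr4a2 averaged 13.9 CPM in SLG organoids, and 38.6 CPM in SLG tissue, 31.5 CPM in PG tissue and 8.05 CPM in SMG tissue.

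Over the 8 organoid libraries and 11166 genes, r was highest for the organic anion transporter Slco1a5 (0.994), Cmas, which activates sialic acid for glycoprotein synthesis (0.987), Nr4a2 (0.986) and Agap1, a regulator of endosomal traffic (0.986). Sntb1, Plekha8, Stard13, Sh2b3, F3 and Mfap3l followed, with 0.976 to 0.983. Cmas averaged 127.5 CPM in SLG organoids, 62.4 CPM in PG organoids, 108 CPM in SMG organoids in DAM and 159 CPM in SMG organoids in GEM, the order of the groups for the summed Dcpp genes. Nr4a2 was the gene named in both lists. By Spearman's rank correlation, 6 of the 10 genes over 14 libraries and 3 of the 10 over organoids were again among the highest 10.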

How the data were processed

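RNA was sequenced as paired 100-base reads. HISAT2, StringTie and DESeq2 are the tools in the submitters' processing notes. The build was GRCm38 (mm10). The authors deposited read counts and TPM per gene, in a table for organoids and another for tissue. The labels name a stranded total RNA kit and the methods a stranded mRNA kit. The use of strand and of reads with several matches in counting was not described in the sources used. Columns were matched to samples by name. A PG organoid and an SMG organoid GEM column carry a replicate number that no label has, so their counts entered by group and their 2 TPM columns were not used. CPM were scaled to the whole library. Fold changes came from edgeR 4.0.16 (R 4.3.3; quasi-likelihood test, TMM scaling, genes with a count in every library, all groups of a table in 1 fit). Calls required an adjusted p (Benjamini-Hochberg, all genes) under 0.05 with a log2 fold change beyond 1, and p-values measure only the spread between these libraries. Organoids and tissue of a gland were set side by side in a fit over the 12 libraries of both tables without GEM, although the tables were made apart. The members and gene lists were chosen with earlier results of these data known. Named list genes were up to 4 per list with the smallest adjusted p in SLG over PG, SLG over SMG or DAM over GEM, plus any called transcription factor. Neighbours needed at least 10 counts in a library, and similar genes were the 10 with the highest r, of which 1 is not reported here. Deposited FPKM were not used. Alternatives were DESeq2 1.42.0, other scalings and filters, deposited TPM, left-out libraries and a replicate block. Scripts were tested on simulated data.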

Additional observations from a re-analysis of the deposited data

Results flagged for a closer look

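PG over SMG ran in opposite directions in organoids and in tissue. Every PG organoid library was below every SMG organoid library in DAM, and every PG tissue library was above every SMG tissue library, for each Dcpp gene and for their sum. Of all genes tested, 30.0% showed the first separation and 42.3% the second. The log2 ratio of CPM in organoids minus that in tissue was -17.44 for Dcpp1, -12.95 for Dcpp2, -13.22 for Dcpp3 and -15.0 for the sum. Organoids over tissue likewise ran in opposite directions in SLG and SMG, lower in every SLG organoid library and higher in every SMG organoid library in DAM. Here 13.6% of all genes tested showed the first separation and 84.7% the second. How many genes showed both separations of either pair was not counted. The log2 ratio in SLG minus that in SMG was -14.58 for Dcpp1, -14.63 for Dcpp2, -14.53 for Dcpp3 and -14.69 for the sum. These differences were not tested, and CPM are not corrected for the composition of the libraries. Both comparisons contain the SMG tissue libraries, where the counts of the 3 genes sum to 205 and 248.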

How the results depend on the processing

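The summed Dcpp ratio kept its direction in all 80 alternative values, and 336 of 342 values for single genes did. In log2, the summed ratio was also taken with TMM totals, relative log expression (RLE) size factors from edgeR, and totals without the 10 most counted genes. In that order it was 2.64, 2.64 and 2.47 for SLG over PG tissue and 14.81, 14.80 and 14.46 for SLG over SMG tissue. For organoids over tissue it was -8.58, -8.64 and -8.30 in SLG, -9.78, -9.85 and -9.63 in PG, and 5.15, 5.11 and 5.06 in SMG. With deposited TPM, an alternative chosen after seeing the data, it was 16.32 for SLG over SMG tissue, 12.81 for PG over SMG tissue, and -6.67, -7.23 and 8.39 for organoids over tissue of SLG, PG and SMG. The cause was not tested. Dcpp1 in SLG over PG tissue (-0.01) was 0.91 with totals of tested genes, 0.0284 without a filter, 0.00707 with only these groups fitted, 0.85 by whole-library CPM, and -0.11 to 0.11 with a library left out (0.11 without SLG tissue library 2 and 0.10 without PG tissue library 1).

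Leaving out a library gave summed ratios of -2.23 to -1.89 for DAM over GEM, 3.60 to 4.05 for SLG over PG organoids, 0.96 to 1.27 for SLG over SMG organoids, -2.94 to -2.49 for PG over SMG organoids, 3.40 to 3.61 for SLG over PG tissue, 15.60 to 16.02 for SLG over SMG tissue and 12.11 to 12.53 for PG over SMG tissue. Organoids over tissue then ran from -7.52 to -7.42 in SLG, -8.02 to -7.57 in PG and 7.02 to 7.44 in SMG. Genes called for DAM over GEM numbered 482, but 273 without SMG DAM library 2, 1065 without SMG GEM library 3 and 308 with only these groups fitted. With totals of tested genes, calls were 8121 instead of 4608 for SLG over PG tissue and 9184 instead of 3309 for SLG over SMG tissue. For SLG organoids over tissue they were 8444 with filterByExpr and 8447 without a filter, instead of 5588. The replicate numbers are only shared numbers, with correlations of deviations between -0.085 and 0.16. With the replicate block, SLG over SMG organoids was 0.49 for Dcpp1, 1.39 for Dcpp2 and 1.07 for Dcpp3, with 2977 genes called instead of 2470, and no count of calls moved by over 1.5 times in this or the 3 tissue comparisons. No paired analysis was possible for the other comparisons because their columns share too few numbers of the labels or lie in separate tables. The depth of SMG tissue limits the make-up of the Dcpp genes there.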
